A study of Arabidopsis thaliana with 30 samples.

Results

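Submerged seedlings of the Arabidopsis thaliana mutant tcpq were compared with submerged seedlings of the Col wild type, 3 libraries of each. These 6 libraries were taken, by genotype and treatment, from the 30 poly-A RNA-seq libraries of the study, and from the 18 that share one Col control set. Both groups were labelled as whole seedlings aged 6 days; the Col group was given as WT and the tcpq group as Crispr lines. The sources used here do not give which genes the tcpq lines lack, how many lines there were, or how long the water treatment lasted. The same set holds mock-treated Col and tcpq and the mutant tcp21, also labelled as Crispr lines, with 3 libraries in each group. The study asked how gene expression differs in mutants that do poorly under water. Of 32833 genes in the table, 20385 had enough reads to be tested.

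TCP factors are plant transcription factors named after TB1, CYC and PCF. Class I members, among them TCP14, TCP15 and TCP21, bind GC-rich motifs and act in growth, in the circadian clock and in the crosstalk of hormones and immunity. Submergence cuts off oxygen and light. Arabidopsis answers with fermentation and hypoxia genes under group VII ERF factors, with ethylene signalling, and with the use of stored sugar, amino acids and fat.

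Library totals ran from 17931608 to 26085652 counts in the 6 libraries. Levels below are CPM, which are counts scaled to a common library size after TMM normalization. Differences are log2 values of tcpq minus Col ± SE with n = 3 libraries a group, from edgeR's quasi-likelihood test fitted to all 18 libraries. "Rose", "fell" and "called" mean a Benjamini-Hochberg adjusted p below 0.05 over all 20385 genes. On principal components of the 6 libraries, the first axis (48.7% of the variance) placed the Col libraries between -34.16 and -27.84 and the tcpq libraries between 30.57 and 32.56. Whole seedlings were sequenced, so fewer cells of a type and less RNA per cell cannot be told apart in any result below. Nothing states whether replicates came from separate cultures; the p-values cover the spread among these libraries, which may be technical.

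Under water, 3369 genes differed between tcpq and Col, 16.5% of those tested. Of these, 1774 were higher in tcpq (8.7%) and 1595 lower (7.82%). Most differences were small, with a median absolute log2 difference of 0.513 among called genes. At least 2-fold changes were called for 225 higher genes (1.1% of those tested) and 338 lower genes (1.66%). The median over all tested genes was 0.006. Without the first Col library the counts were 1151 higher and 1106 lower, the lowest over the 6 left-out libraries.

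Class I TCP transcripts were examined first, since tcpq is a TCP mutant. Of 13 class I genes, 9 passed the filter on low counts; 2 rose and 2 fell, against 16.5% of all genes called in either direction. TCP21 (AT5G08330, also known as CHE), which binds the CCA1 promoter of the clock, was at 73.5, 77.6 and 83.4 CPM in Col and at 58.4, 64.9 and 58.9 CPM in tcpq. Its difference was -0.36 ± 0.10 (edgeR adjusted p = 0.00983), with every tcpq library below every Col library. That call was lost without the third Col library (adjusted p = 0.0551) or the first tcpq library (adjusted p = 0.0507). In mock, TCP21 stood at 83.2, 102 and 93.8 CPM in Col and at 19.9, 22.8 and 23.6 CPM in tcpq, a difference of -2.07. Its submerged level in tcpq was thus far closer to Col than its mock level, and the interaction was 1.71 (edgeR adjusted p = 1.53e-10).

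TCP7 (AT5G23280) read 23.2, 20.5 and 23.9 CPM in Col against 17.5, 14 and 18.1 CPM in tcpq, with a difference of -0.44 ± 0.11 (edgeR adjusted p = 0.00675; 0.0675 without the second tcpq library). TCP23 (AT1G35560) had the widest rise of the family, from 11.7, 10.7 and 13.5 CPM to 20.8, 21 and 17.1 CPM, a difference of 0.70 ± 0.12 (edgeR adjusted p = 5.79e-05). TCP8 (AT1G58100) was at 58.8, 60.2 and 57.1 CPM in Col and at 72.8, 70.3 and 75.8 CPM in tcpq (0.31 ± 0.07, edgeR adjusted p = 0.00196). For these 3 genes the 2 groups of libraries did not overlap. TCP14 (0.23 ± 0.12), TCP15 (0.32 ± 0.13), TCP20 (0.21 ± 0.16), TCP22 (-0.03 ± 0.08) and TCP19 (-0.12 ± 0.30) were not called. TCP9 is listed at 0 in all 6 libraries, and TCP16, AT5G41030 and AT2G37000 had too few reads to test. No class I gene that passed the filter fell to near 0 in tcpq. A transcript level does not show whether a Crispr allele makes working protein, so the labels could not be checked from these values.

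BAK1 and BKK1, the co-receptor kinases altered in the study's other mutant, were followed here too. BKK1 (AT2G13790) was at 105, 100 and 100 CPM in Col and at 81.1, 69.5 and 80.6 CPM in tcpq (-0.40 ± 0.10, edgeR adjusted p = 0.005). BAK1 (AT4G33430) was not called (-0.08 ± 0.07, edgeR adjusted p = 0.489). Among 13 genes of SERK co-receptors and brassinosteroid signalling, 2 rose and 2 fell, 30.8% of the list beside 16.5% of all genes. The risers were the brassinosteroid-response factor BZR1 (0.44 ± 0.10) and the brassinosteroid receptor BRI1 (0.26 ± 0.07), and the other faller was SERK5 (-0.46 ± 0.14). BRI1 and SERK5 were each lost when any of several single libraries was left out, and without the first Col library the list gave 1 rise and 1 fall. Of 11 genes of brassinosteroid synthesis and inactivation, 36.4% were called. The biosynthetic enzymes CPD (-0.51 ± 0.08) and CYP90D1 (-0.95 ± 0.17) fell. BR6OX2, which makes the last steps (0.51 ± 0.14), and UGT73C5, which inactivates the hormone by adding glucose (0.86 ± 0.24), rose. Neither of these rises was called without the first tcpq library.

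The 10 largest falls and the 10 largest rises were taken among called genes that reached 5 CPM on average in the higher group and whose libraries did not overlap. AT5G33370, a GDSL-like lipase, was at 11.7, 13.6 and 10.5 CPM in Col and at 0.98, 0.172 and 0.21 CPM in tcpq (-4.80 ± 0.52, edgeR adjusted p = 1.7e-05). THI2.2 (AT5G36910), a thionin, a class of small antimicrobial peptides, went from 53.8, 47.4 and 68.2 CPM to 4.41, 5.63 and 5.97 CPM (-3.39 ± 0.16, edgeR adjusted p = 1.02e-11). ESP (AT1G54040), the epithiospecifier protein that steers glucosinolate breakdown towards nitriles, was at 11.2, 12.3 and 14 CPM in Col and at 2.27, 1.72 and 1.26 CPM in tcpq (-2.86 ± 0.23, edgeR adjusted p = 8.54e-10). In each of these genes even the highest tcpq library lay well under the lowest Col library. They were lower in tcpq in mock as well, with differences of -4.83 (AT5G33370), -6.53 (THI2.2) and -8.1 (ESP, at 0 CPM in every mock tcpq library). The interaction was not called for AT5G33370 (0.03). It was positive for THI2.2 (3.14) and ESP (5.23), whose log2 difference was thus smaller under water. Mock Col held only 1.78, 1.15 and 1.72 CPM of ESP, so the sizes of its mock difference and interaction are uncertain. In CPM, the ESP gap was wider under water (means of 12.5 in Col and 1.75 in tcpq).

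The other falls were GPAT2, a glycerol-3-phosphate acyltransferase (-3.24), the peroxidase AT1G49570 (-3.12), the tyrosine aminotransferase TAT3 (-3.08), the MATE efflux carrier AT3G23550 (-2.88), the receptor-like protein RLP19 (-2.73), the beta-glucosidase BGLU24 (-2.54) and the CC-NBS-LRR resistance protein AT1G63350 (-2.46). TAT3, a jasmonate-inducible gene, was at 9.01, 9.88 and 7.01 CPM in submerged Col and at 0.613, 1.67 and 0.799 CPM in tcpq. In mock no library of either genotype exceeded 0.157 CPM for TAT3. GPAT2 (-5.16), RLP19 (-1.5) and AT1G63350 (-1.56) were lower in tcpq in mock too. There AT1G49570 was higher (3.02), and AT3G23550 and BGLU24 were not called. BGLU24, like TAT3, had almost no reads in mock, with no library above 0.383 CPM. The interaction was called for AT3G23550 (-2.86), but not for BGLU24 (-1.18) or TAT3 (-2.84).

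Among the rises, AT3G03341, annotated as a cold-regulated protein, went from 0.884, 0.353 and 0.834 CPM in Col to 8.64, 5.86 and 5 CPM in tcpq (3.20 ± 0.33, edgeR adjusted p = 6.28e-08). EXPA16 (AT3G55500), an expansin that loosens cell walls, rose from 2.17, 3.68 and 3.53 CPM to 32.1, 24.4 and 19.3 CPM (3.02 ± 0.21, edgeR adjusted p = 3.44e-11). FRO5 (AT5G23990), a ferric and cupric reductase, was at 2.37, 3.53 and 4.12 CPM in Col and at 24.1, 23.6 and 23.2 CPM in tcpq (2.84 ± 0.16, edgeR adjusted p = 8.62e-13). The tcpq libraries of FRO5 lay within 1 CPM of each other. ICL (AT3G21720), isocitrate lyase of the glyoxylate cycle, was the most abundant of the rising genes, at 24.8, 27.3 and 26.3 CPM in Col and 164, 140.0 and 136 CPM in tcpq (2.49 ± 0.23, edgeR adjusted p = 7.64e-06).

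The other rises were the small heat shock genes HSP17.6II (2.76) and HSP17.6A (2.47), the lipid-transfer family gene AT2G37870 (2.64), BON3, a copine that binds membranes with calcium (2.38), the cupin PAP85 (2.22) and the extensin-like cell wall gene EXT13 (2.05). BON3 stood at 3.22, 2.77 and 2.75 CPM in Col and at 15.1, 15.9 and 14.5 CPM in tcpq. Reads of EXT13 and of the HSP17.6 genes may be shared with close copies, so their own levels are uncertain. All 20 genes stayed called whichever of the 6 libraries was left out.

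**Figure D1:**
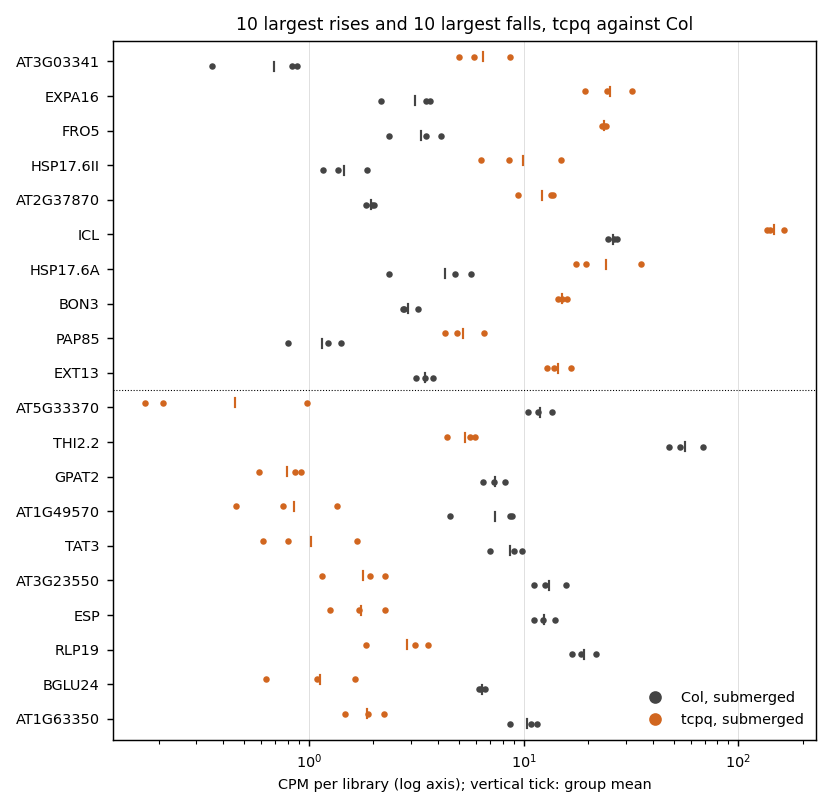
Level in each library, CPM on a log axis, of the 10 largest rises (above the dotted line) and the 10 largest falls (below it); dots are libraries, vertical ticks the group means. In every gene the 3 tcpq libraries lie on one side of the 3 Col libraries, from 0.172 to 0.98 CPM against 10.5 to 13.6 CPM for AT5G33370 at the extreme.

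Among the 44 gene lists, jasmonate genes had the largest share of falls. Jasmonate is made from chloroplast lipids by lipoxygenases (LOX), AOS, AOC and OPR3, is coupled to isoleucine by JAR1, and acts through degradation of the JAZ repressors, whose own genes it induces. Of 31 genes listed, 28 were tested: 21 fell and none rose, against 7.82% of all genes called lower. The median difference was -0.87, beside 0.006 over all genes. In 24 of the 28 every tcpq library was below every Col library (16.8% of all tested genes). The list was chosen with earlier results of these libraries known, so its direction is a description.

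On the synthesis side, AOC1 (AT3G25760), allene oxide cyclase, was at 89.5, 71.3 and 84.8 CPM in Col and at 20.4, 24.6 and 19.5 CPM in tcpq (-1.93 ± 0.12, edgeR adjusted p = 1.02e-11). Its neighbour AOC2 (AT3G25770) was at 63.7, 55.2 and 58.7 CPM against 22.1, 22.5 and 19.9 CPM (-1.47 ± 0.13, edgeR adjusted p = 3.04e-09). AOS (AT5G42650), allene oxide synthase, was at 212, 169 and 197 CPM against 81.9, 84.7 and 62.9 CPM (-1.34 ± 0.14, edgeR adjusted p = 3.82e-06). In all of these the tcpq libraries held less than the lowest Col library by a wide gap. Reads may be shared between AOC copies. AOC3 (-0.76), OPR3 (-1.31), LOX2 (-1.52), LOX3 (-1.18) and JAR1 (-0.55) fell as well, whereas AOC4 (0.06 ± 0.12) and LOX4 (-0.79 ± 0.27) were not called.

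On the response side, JAZ9 (AT1G70700) was the most abundant repressor gene, at 427, 421 and 453 CPM in Col and 214, 205 and 193 CPM in tcpq (-1.09 ± 0.08, edgeR adjusted p = 5.81e-11). JAZ6 (AT1G72450) was at 201, 184 and 222 CPM against 106, 106 and 91.0 CPM (-1.01 ± 0.11, edgeR adjusted p = 5.65e-07). All 10 JAZ genes tested fell, with differences from -1.09 to -0.47 in JAZ12. CYP94C1, which oxidises the active hormone, fell (-1.01 ± 0.23), and so did AT5G05600 and AT2G38240, both annotated as 2-oxoglutarate and Fe(II)-dependent oxygenases (-1.32 and -0.71). CYP94B3 (0.03 ± 0.14), VSP1 (-0.48 ± 0.24) and VSP2 (0.28 ± 0.28) were not called. VSP2 was at 6.47, 6.2 and 7.75 CPM in Col and at 9.06, 11.4 and 4.62 CPM in tcpq, so its groups overlapped. MYC2, the factor released when JAZ proteins are degraded, is listed at 0 in all 6 libraries and could not be compared. The count of falls lay between 21 and 22 whichever library was left out.

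The G-box CACGTG, the element bound by MYC2-type factors, was looked for in the 250 bases before the annotated start of each tested gene (RefSeq, TAIR10.1; the palindrome reads the same on both strands). It was found in 5 of the 28 jasmonate genes (17.9%) and in 7.43% of all tested nuclear genes. These 5 promoters are printed because they belong to a synthesis gene and 4 repressor genes that all fell in tcpq; stretches run in the direction of the gene, with the G-box in capitals.
AOS, chr5:17099596-17099628, minus strand: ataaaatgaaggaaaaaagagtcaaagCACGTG
JAZ2, chr1:28150480-28150539, minus strand: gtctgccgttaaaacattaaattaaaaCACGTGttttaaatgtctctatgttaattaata
JAZ3, chr3:6119540-6119657, plus strand: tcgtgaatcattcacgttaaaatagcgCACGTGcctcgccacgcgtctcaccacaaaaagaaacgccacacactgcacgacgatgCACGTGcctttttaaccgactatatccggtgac
JAZ7, chr2:14572969-14573028, plus strand: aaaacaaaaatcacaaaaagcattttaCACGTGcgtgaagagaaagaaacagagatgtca
JAZ8, chr1:10596315-10596351, plus strand: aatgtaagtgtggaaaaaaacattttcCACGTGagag
JAZ3 holds 2 copies and the others 1. The 4 JAZ genes differed by -0.63 ± 0.10 (JAZ2), -0.79 ± 0.13 (JAZ3), -0.89 ± 0.13 (JAZ7) and -0.99 ± 0.21 (JAZ8). The class I TCP motif GTGGGNCC, searched on both strands, was in none of the 28 jasmonate windows and in none of the 9 class I TCP windows. It was in 1.31% of all tested nuclear genes, in 2.14% of those called higher (38 of 1773) and in 1.07% of those called lower (17 of 1595). A match in these windows is a description of the sequence only.

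**Figure D2:**
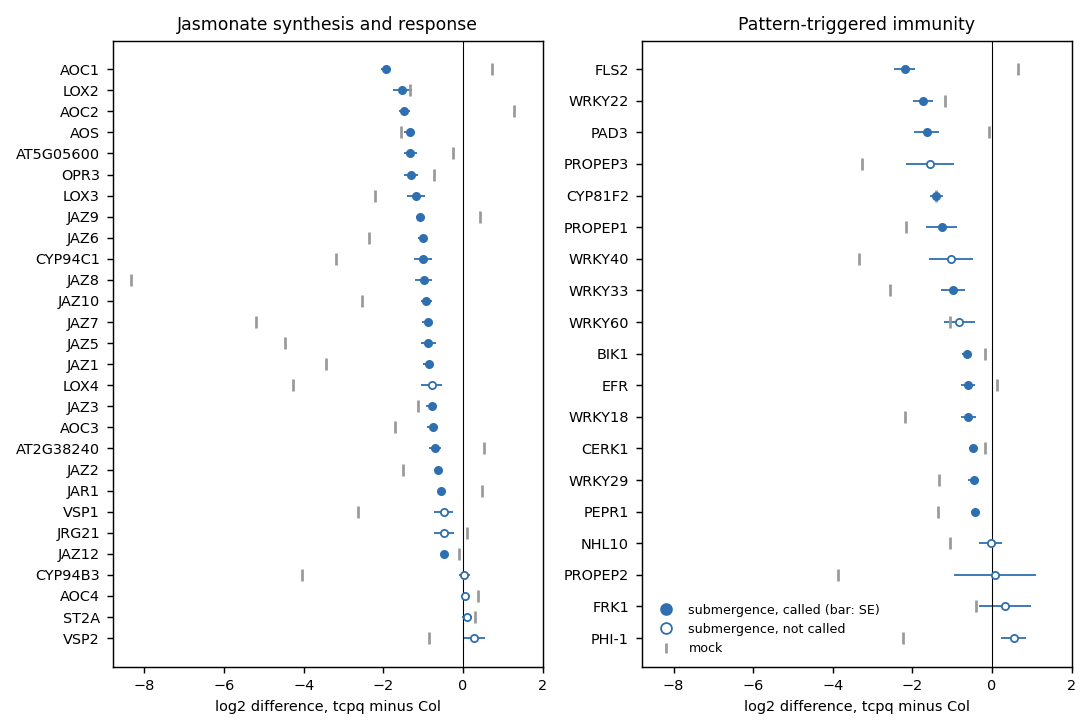
Log2 difference of tcpq minus Col (horizontal axis) for the tested genes of jasmonate synthesis and response and of pattern-triggered immunity (vertical axis); circles with SE bars are submergence, filled where called, and grey ticks are mock. Filled circles lie left of 0 in both panels (21 of 28 and 12 of 19 genes), while several grey ticks lie right of 0 or far to the left; the far-left JAZ8 tick rests on almost no reads in mock tcpq, where its highest library was at 0.0421 CPM.

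Pattern-triggered immunity is the defence that surface receptors start on sensing microbial or damage peptides. Of its 19 genes tested, 12 fell and none rose, against 7.82% of all genes called lower, with a median difference of -0.64. FLS2 (AT5G46330), the receptor for bacterial flagellin, was at 52.4, 51.5 and 50.8 CPM in Col and at 10.2, 14.7 and 9 CPM in tcpq (-2.20 ± 0.26, edgeR adjusted p = 4.26e-05). WRKY22 (AT4G01250), a factor downstream of FLS2, was at 221, 212 and 202 CPM against 73.9, 66.4 and 51.0 CPM (-1.73 ± 0.25, edgeR adjusted p = 0.000426). In both genes the highest tcpq library was far below the lowest Col library.

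Further receptors that fell were CERK1 for chitin (-0.48), EFR for elongation factor Tu (-0.61) and PEPR1 for plant Pep peptides (-0.44). BIK1 (AT2G39660), the kinase that relays their signal, was at 55.7, 41.4 and 42.5 CPM in Col and at 29.2, 29.8 and 30.7 CPM in tcpq (-0.64 ± 0.11, edgeR adjusted p = 0.000168). CYP81F2, of indole glucosinolate defence (-1.40), and PAD3, the last enzyme of camalexin synthesis (-1.64), fell too. WRKY40 (-1.04 ± 0.55), FRK1 (0.32 ± 0.66) and PHI-1 (0.54 ± 0.31) were not called. The count of falls was 8 to 13 over the 6 left-out libraries.

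Of 19 salicylic acid genes tested, 5 fell and none rose, 26.3% of the list beside 7.82% of all genes called lower: SAG101 (-0.69), a partner of EDS1, PBS3 (-1.85), which conjugates the precursor of the hormone, GRX480 (-1.64), FMO1 (-0.78) and the transporter EDS5 (-0.64). The synthesis gene ICS1 (0.07 ± 0.11) and the receptor NPR1 (-0.03 ± 0.08) were not called, and PR1 and PR2 had too few reads to test. The count was 3 without the first or the third Col library or the second or the third tcpq library.

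Glucosinolates are sulphur-rich defence compounds made from methionine (aliphatic) or tryptophan (indole). Of 16 aliphatic genes 6 fell and none rose, and of 11 indole genes 3 fell and none rose, beside 7.82% of all genes called lower. MYB29 (AT5G07690), an activator of the aliphatic branch, was at 2.33, 1.92 and 2.06 CPM in Col and at 0.245, 0.402 and 0.547 CPM in tcpq (-2.34 ± 0.47, edgeR adjusted p = 0.000745). MYB28 (-0.71), CYP79F1 (-1.19), BCAT4 (-0.87), IMD1 (-0.54) and MAM1 (-0.54) were the other aliphatic genes, and CYP79B3 (-0.60), CYP83B1 (-0.28) and SUR1 (-0.40) the indole ones. The aliphatic count was 2 without the first Col library and 3 without the third tcpq library, and the indole count was 1 in both cases.

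Heat shock proteins are chaperones that hold or refold damaged proteins and are induced by HSF factors. Of 16 genes tested, 9 rose and none fell, against 8.7% of all genes called higher, and the median difference was 1.08. AT1G07400, an HSP20-like chaperone, was at 6.27, 8.31 and 7.51 CPM in Col and at 43.1, 24.1 and 21.1 CPM in tcpq (2.00 ± 0.32, edgeR adjusted p = 0.000637). HSP17.6A (AT5G12030) was at 4.82, 2.37 and 5.69 CPM against 35.2, 19.5 and 17.6 CPM (2.47 ± 0.38, edgeR adjusted p = 0.000526). HSP90.1 (AT5G52640) was at 158, 190.0 and 171 CPM against 463, 294 and 340.0 CPM (1.08 ± 0.31, edgeR adjusted p = 0.0304). In each the first tcpq library was the highest of the 6, and the 2 groups did not overlap.

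ROF2, a co-chaperone (1.23), HSP23.6-MITO of mitochondria (1.81), HSP22 (2.24), AT5G51440 (0.90) and AT5G37670 (1.08) also rose. The large chaperones HSP101 (0.95 ± 0.30) and HSP70 (0.82 ± 0.29) and the factor HSFA2 (1.16 ± 0.39) were not called, although their libraries did not overlap. The number of rises depended on single libraries: it was 5 without the first tcpq library and 3 without the first Col library. DESeq2 called 12.

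**Figure D3:**
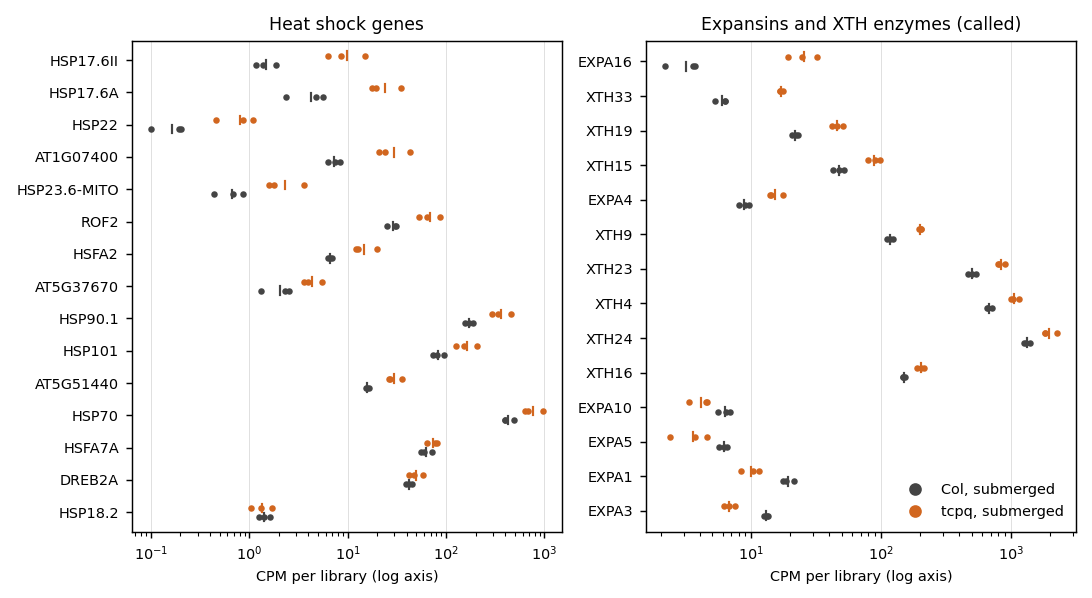
Level in each library, CPM on a log axis, for tested heat shock genes (left; HSP21, at 0 in 1 Col library, is left out) and for the called expansin and XTH genes (right); dots are libraries, vertical ticks group means. Tcpq dots lie right of Col dots down to HSP70 on the left, and for 10 of the 14 genes on the right, from EXPA16 to XTH16.

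Chaperones of the endoplasmic reticulum, which fold secreted proteins, showed 5 rises and 1 fall among 12, beside 8.7% of all genes called higher and 7.82% lower. BIP2 (AT5G42020), an HSP70 of that compartment, was at 62.5, 60.3 and 49.8 CPM in Col and at 86.0, 89.2 and 77.4 CPM in tcpq (0.55 ± 0.09, edgeR adjusted p = 0.000112). CNX1 (0.38), ERDJ3A (0.89), PDIL1-1 (0.32) and BIP1 (0.33) were the other rises, and ERDJ3B was the fall (-0.27). Leaving out single libraries lost the call of BIP1 in 5 of 6 cases, of ERDJ3B in 3 and of PDIL1-1 in 2.

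Fat breakdown feeds the glyoxylate cycle, which lets seedlings build sugar from stored oil. Of its 10 genes 5 rose and 1 fell, beside 8.7% of all genes called higher and 7.82% lower. However, the number of rises was 2 without the first or the third Col library or the third tcpq library. MLS (AT5G03860), malate synthase, the partner of ICL in the cycle, was at 11.3, 11.4 and 9.81 CPM in Col and at 30.1, 31.4 and 30.1 CPM in tcpq (1.49 ± 0.11, edgeR adjusted p = 1.93e-10). ICL and MLS were the large changes of the list, since PCK1 (0.21), MFP2 (0.23) and ACX2 (0.25) rose little and ACX1 fell (-0.42). PAP85, in the group of largest rises, belongs to the seed storage markers. The summed level of 14 such markers was 3.46 to 4.02 CPM in Col and 6.49 to 9 CPM in tcpq, of which PAP85 made up most in tcpq. The defining storage protein genes, cruciferins (CRA1, CRB, CRC) and SESA1 to SESA5, were at or near 0, with no library above 0.46 CPM. OLEO4, an oil-body protein, fell (-1.60 ± 0.52), a call lost without any of 5 single libraries. What part seed reserves had in the ICL and MLS result was not tested.

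Abscisic acid genes gave 5 rises and 1 fall among 14, beside 8.7% of all genes called higher and 7.82% lower. RD29B (AT5G52300), a dehydration marker gene, was at 4.1, 3.17 and 3.04 CPM in Col and at 12.4, 12.9 and 12.6 CPM in tcpq (1.86 ± 0.17, edgeR adjusted p = 4.39e-09). The hormone-degrading enzymes CYP707A2 (1.70) and CYP707A4 (1.24), the factor ABF3 (0.46) and the phosphatase HAI1 (0.72) rose, and the synthesis enzyme AAO3 fell (-0.29). Neither CYP707A4 nor AAO3 was called without the first Col library, the second Col library or the first tcpq library.

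Core hypoxia genes serve fermentation and low-oxygen survival. Of 23 core hypoxia genes tested, 2 rose and 1 fell, a share of 13% beside 16.5% of all genes. Their interaction with treatment was called higher for 5 and lower for 6, beside 17.5% and 17.1% of all genes. ADH1, alcohol dehydrogenase, was at 5.03, 6.65 and 6.23 CPM in Col and at 8.51, 7.70 and 5.42 CPM in tcpq (0.27 ± 0.25, edgeR adjusted p = 0.535), so the groups overlapped. PDC1 (0.23 ± 0.28), HRE1 (-0.12 ± 0.15) and LBD41 (-0.23 ± 0.15) were not called either. The called members were the ethylene receptor gene ETR2 (0.47 ± 0.14), the sucrose synthase SUS1 (0.30 ± 0.10) and the ethylene-forming ACO1 (-0.74 ± 0.25). None of the 3 was called without the first tcpq library. Of 9 genes for group VII ERF factors and PCO oxygen sensors, RAP2.2 rose (0.20 ± 0.06); the call was lost without the first Col library or the first or the third tcpq library.

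Ethylene genes gave 2 rises and 3 falls of 20, 25% of the list beside 16.5% of all genes. Without the third Col library or the first or the second tcpq library there was 1 of each. ACS8 (AT4G37770), an enzyme of the first committed step, had the largest fall, from 25.4, 19.4 and 29.4 CPM to 9.06, 10.9 and 10.3 CPM (-1.29 ± 0.23, edgeR adjusted p = 0.00033). Sugar starvation genes gave 2 rises of 17, DIN9 (0.51) and DIN2 (0.61), 11.8% of the list. DESeq2 called 4 and a fit of the 6 libraries alone 7. DIN6, the starvation-induced asparagine synthetase, was at 3200, 3560 and 3270 CPM in Col and 3310, 3020 and 3510 CPM in tcpq (-0.03 ± 0.14). None of 19 autophagy genes was called, with differences from -0.21 to 0.23. Of 39 nuclear photosynthesis genes, 1 rose and 2 fell, 7.69% of the list. Their summed levels were 163000 to 166000 CPM in Col and 154000 to 171000 CPM in tcpq.

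Cell wall enzymes that permit expansion changed in both directions. Of 28 expansin and XTH genes 10 rose and 4 fell, 50% of the list beside 16.5% of all genes. XTH enzymes cut and rejoin xyloglucan. XTH33 (AT1G10550) was at 6.31, 5.24 and 6.28 CPM in Col and at 16.7, 17.6 and 16.7 CPM in tcpq (1.51 ± 0.16, edgeR adjusted p = 6.72e-08). XTH9 (AT4G03210) was at 123, 118 and 112 CPM against 197, 203 and 202 CPM (0.77 ± 0.09, edgeR adjusted p = 3.81e-07). Both groups were tight and clearly apart. XTH4 (0.64), XTH15 (0.92), XTH16 (0.43), XTH19 (1.08), XTH23 (0.74), XTH24 (0.57) and EXPA4 (0.78) rose, and EXPA16 has been given above. The falls were all expansins. EXPA3 (AT2G37640) was at 13.4, 12.5 and 13.1 CPM in Col and at 6.68, 7.47 and 6.10 CPM in tcpq (-0.95 ± 0.11, edgeR adjusted p = 6.87e-07), and EXPA1 (-0.92), EXPA5 (-0.83) and EXPA10 (-0.61) fell with it. The falls numbered 2 without the first Col library or the second tcpq library.

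Aquaporins, the water channels of the plasma membrane (PIP) and vacuole (TIP), rose in 12 of 19 genes and fell in none, against 8.7% of all genes called higher. TIP1;2 (AT3G26520) was at 1920, 2140 and 1910 CPM in Col and at 2860, 2820 and 2660 CPM in tcpq (0.48 ± 0.07, edgeR adjusted p = 2.97e-05). PIP1;3 (AT1G01620) was at 935, 1010 and 1080 CPM against 1440, 1300 and 1400 CPM (0.45 ± 0.08, edgeR adjusted p = 0.000208). The differences were small throughout, from -0.32 to 0.48 over the list, and in 10 of the 12 called genes the libraries did not overlap. The rises numbered 6 without the first Col library and 7 without the first tcpq library.

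Of 16 root markers 6 rose and none fell, beside 8.7% of all genes called higher, with a median difference of 0.33. Their summed level was 1870 to 1980 CPM in Col and 2050 to 2450 CPM in tcpq, most of it PYK10 (means of 1650 and 1970 CPM). SCR (0.38) and SHR (0.34), factors of ground tissue patterning, CASP1 (0.42) and CASP2 (0.41), of the Casparian strip, PYK10 (0.26) and PLT1 (1.40) were the 6 that rose. The PYK10 call was lost without the first Col library or the first or the second tcpq library. The count was 2 without the first Col library and 3 without the first or second tcpq library. The part of a different share of root in the aquaporin and cell wall results was not tested. Of 9 stomatal lineage markers tested 2 fell and none rose, beside 7.82% of all genes called lower. The 9 summed to 33.8 to 41.6 CPM in Col and 26.3 to 28.2 CPM in tcpq. POLAR was at 3.5, 5.14 and 3.78 CPM against 0.796, 1.15 and 0.967 CPM (-2.08 ± 0.30, edgeR adjusted p = 1.05e-05), and TMM, a receptor-like protein of stomatal patterning, fell (-0.85 ± 0.15). FAMA (-0.07 ± 0.12) and SPCH (-0.66 ± 0.32) were not called. Shoot meristem and boundary markers, of which 1 of 6 was at 0, summed to 8 to 8.87 CPM in Col and 13.1 to 15.3 CPM in tcpq. Trichome markers summed to 22.4 to 27 CPM in Col and 26.6 to 31.5 CPM in tcpq, with none of 8 called. The part of these tissues in the results above was not tested.

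The genotype difference was then set against its mock counterpart, from other libraries of the same genotypes. In mock, 48.4% of tested genes differed between tcpq and Col, and the interaction of genotype and treatment was called for 34.6% (17.5% higher, 17.1% lower). Of the 3369 genes called under water, 1498 differed in the same direction in mock, 695 in the opposite direction, and 1176 were not called in mock. The interaction was called for 1850 of the 3369 (54.9%). It contains the submerged difference that chose these genes, so shares among genes called under water cannot be compared with the 34.6%. For the first Col mock library the genotype label reads bak1-3 bkk1-1, though the title and strain say Col; without it the interaction counts were 3323 higher and 3229 lower, beside 3567 and 3496.

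Of the 28 jasmonate genes 5 were higher and 17 lower in mock, where 25.8% of all genes were called higher and 22.6% lower. AOC1 was at 9.79, 8.97 and 8.93 CPM in mock Col and at 17.9, 14.6 and 13.5 CPM in mock tcpq, higher in tcpq, whereas under water it was lower. JAZ9 did likewise, with 52.7, 52.6 and 45.2 CPM in mock Col against 69.4, 71.2 and 60.6 CPM in mock tcpq. JAZ6 was lower in tcpq under both treatments, by more in mock (-2.35 in mock, -1.01 under water, interaction 1.34). AOS differed alike in both (-1.56 in mock, interaction 0.22, edgeR adjusted p = 0.44). Pattern-triggered immunity genes gave none higher and 13 lower of 19 in mock, with a median of -1.34 there and -0.64 under water. Their interaction was called higher for 8 and lower for 4, beside 17.5% and 17.1% of all genes. Among the 4 were FLS2 (0.64 in mock, not called, interaction -2.84) and PAD3 (-0.09 in mock, not called, interaction -1.56). Salicylic acid genes gave none higher and 16 lower of 19 in mock, with a median of -1.14. Heat shock genes gave 10 higher and 1 lower in mock, and their interaction was called for 4 of 16. Aquaporins gave 2 higher and 14 lower in mock, and all 12 that rose under water had a called interaction. ER folding genes gave 10 higher and 1 lower in mock, with a median of 1.33 there and 0.28 under water. Aliphatic glucosinolate genes gave 12 higher and none lower in mock, and 14 of 16 interactions were called, each with a lower tcpq minus Col difference under water than in mock.

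EXPA16 was at 2.98, 3.83 and 2.77 CPM in mock Col and 0.947, 0.981 and 0.631 CPM in mock tcpq, a difference of -1.89 that stood against 3.02 under water (interaction 4.92, edgeR adjusted p = 5.34e-12). TIP2;2 was at 213, 224 and 187 CPM in mock Col and at 95.7, 115 and 107 CPM in mock tcpq. Under water it was at 300.0, 316 and 331 CPM in Col and at 468, 441 and 409 CPM in tcpq. ICL was higher in tcpq under both treatments, at 64.0, 116 and 104 CPM in mock Col and at 430.0, 537 and 464 CPM in mock tcpq, and its interaction was not called (0.15, edgeR adjusted p = 0.744).

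**Figure D4:**
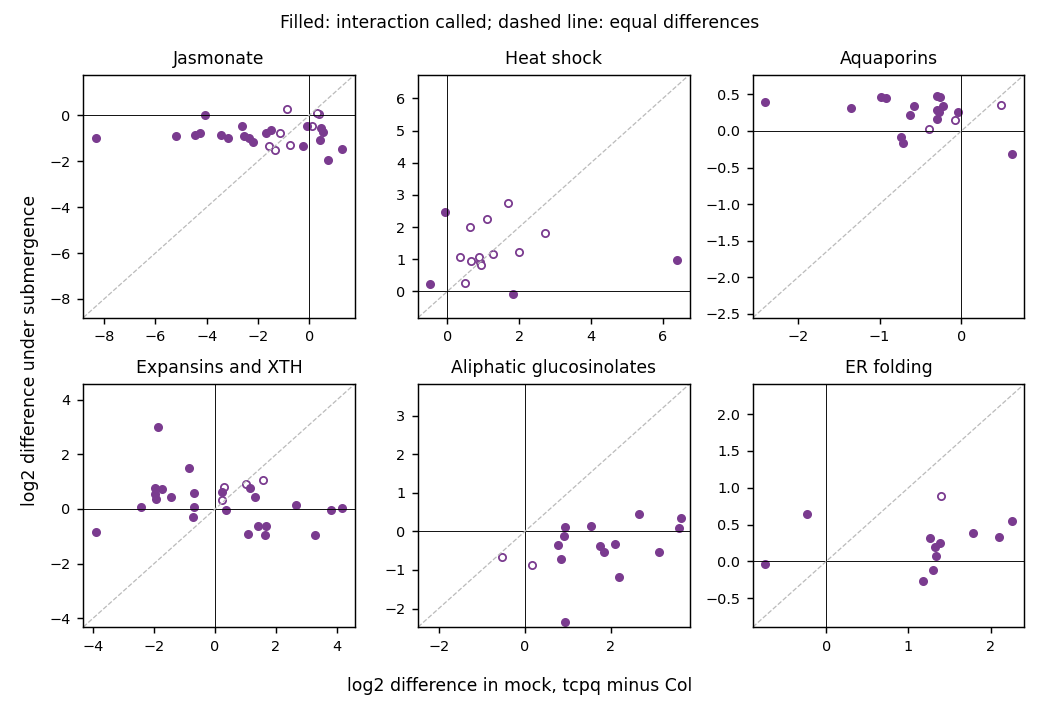
Log2 difference of tcpq minus Col under submergence (vertical axis) against that in mock (horizontal axis) for the tested genes of 6 lists; filled points have a called interaction, and on the dashed line both differences would be equal. Most heat shock points are open, whereas the aquaporins that rose under water lie left of 0 in mock.

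The single mutant tcp21 shared the submerged Col controls with tcpq, so the direct contrast of the 2 mutants under water is the one that tests a difference between them. That contrast called 2756 genes (13.5%), 1648 higher (8.08%) and 1108 lower (5.44%) in tcpq. The excess of higher genes was smaller with other scaling. It was 1502 higher and 1269 lower with DESeq2 size factors, and 1520 and 1280 with upper-quartile scaling. Without the first tcp21, the third tcp21 or the first tcpq library the higher genes numbered 1045, 931 and 1004. Without the first, the second or the third tcpq library the lower genes numbered 655, 675 and 690. Of the 3369 genes that differed between tcpq and Col, 911 (27%) were also called between tcpq and tcp21. Both contrasts use the same submerged tcpq libraries, so part of this overlap is built in. TCP21 itself was at 19.9, 22.3 and 27.6 CPM in submerged tcp21, below the 58.4 to 64.9 CPM of submerged tcpq (tcpq minus tcp21 1.39, edgeR adjusted p = 7.6e-10).

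Between tcp21 and Col under water 26.7% of genes were called (12.3% higher, 14.4% lower). Side by side, jasmonate genes gave 21 falls of 28 against Col in tcpq and 21 in tcp21. Pattern-triggered immunity genes gave 12 and 13 falls of 19, and heat shock genes 9 and 7 rises of 16. These counts share their Col libraries. Between the mutants, 2 jasmonate genes were higher and 5 lower in tcpq, and no heat shock gene was called. AOC1 was at 39.1, 31.3 and 37.2 CPM in tcp21, between the submerged Col and tcpq levels, and lower in tcpq than in tcp21 (-0.74, edgeR adjusted p = 0.000171). THI2.2 was at 35.8, 41.5 and 39.9 CPM in tcp21, with tcpq lower by a log2 difference of -2.86 (edgeR adjusted p = 7.6e-10). BON3, at 1.55, 2.55 and 1.69 CPM in tcp21, was higher in tcpq (2.98, edgeR adjusted p = 2.36e-08). FRO5 was at 31.6, 24.9 and 29.5 CPM in tcp21 and not called between the mutants (-0.28, edgeR adjusted p = 0.165). Expansin and XTH genes gave 11 higher and 2 lower in tcpq than in tcp21, among them XTH33 (1.57) and EXPA16 (1.34). POLAR (-1.77) and TMM (-1.22) were lower in tcpq than in tcp21.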

How the data were processed

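Poly-A RNA libraries from whole seedlings were used as raw counts per gene, in a table the authors deposited for 18 libraries; per the submitters' processing notes, reads went through fastp 0.23.1 and STAR 2.7.9a with the TAIR10 build. Nothing names the counting tool or its strand setting, so overlapping antisense genes and close copies are uncertain. Groups follow titles. Symbols were matched by locus tag to RefSeq TAIR10.1 (32548 of 32833 IDs), which also supplied the 250 bases before each start. Counts were filtered (filterByExpr), scaled by TMM and fitted with robust quasi-likelihood models in edgeR 4.0.16 (R 4.3.3), 6 groups of 3 libraries; SE is the absolute log2 difference over the square root of F. The method was tested on simulated data. Named genes are class I TCP genes, BAK1, BKK1, the 10 largest rises and falls (mean of at least 5 CPM in the higher group, no overlap) and up to 6 called members of each list with the smallest adjusted p; others, and the G-box promoters, were chosen after their values were seen. Members and lists were chosen with earlier results of these data known. Alternatives were other scaling, filters, DESeq2 1.42.0, the 6 libraries alone, a replicate block and leaving out each library. Replicate libraries differed beyond sampling noise. A second deposited table, of other mutants with their own controls, was not analysed here.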

Additional observations from a re-analysis of the deposited data

Results flagged for a closer look

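Among 117 named genes, 35 differed between tcpq and Col in both treatments, in opposite directions, with the interaction of genotype and treatment called by edgeR; 78 of the 117 had a called interaction. The values are log2 interactions, the tcpq minus Col difference under submergence less that in mock. They do not say why the treatments differ. The interaction contains the submerged difference by which most of the 117 were chosen, so these counts are descriptions.

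Positive values, with tcpq lower than Col in mock and higher under water, were EXPA16 4.92, AT3G03341 4.15, FRO5 3.79, AT2G37870 3.37, XTH9 2.75, HAI1 2.42, XTH33 2.38, RD29B 2.25, CASP2 2.2, TIP2;2 1.45, PIP1;3 1.37, BRI1 1.23, BZR1 1.15, CASP1 1.11, TCP8 0.96, TIP1;2 0.78, TIP1;1 0.73, PIP2;1 0.56 and MFP2 0.43.

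Negative values, with tcpq higher in mock and lower under water, were AT1G49570 -6.15, IMD1 -3.66, AOC2 -2.76, AOC1 -2.67, EXPA3 -2.58, MAM1 -2.38, TMM -1.77, MYB28 -1.56, ACO1 -1.53, JAZ9 -1.50, ERDJ3B -1.45, JAR1 -1.02, SUR1 -0.81, ACX1 -0.59, AAO3 -0.58 and ACO4 -0.57. AT1G49570 was at 1.38, 0.274 and 0.261 CPM in mock Col, so its value rests on few reads there.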

How the results depend on the processing

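Counts of called genes for tcpq against Col under submergence were 1742 higher and 1620 lower with DESeq2 size factors, 1786 and 1575 with upper-quartile scaling, 1692 and 1517 without the low-count filter, and 1862 and 1965 with the 6 libraries alone. No named gene changed direction with a call under any alternative run. Calls of named genes were lost for 28 of 111 called genes without the first Col library and in 12 to 23 without each of the others. Leaving out 1 library gave 1151 to 1689 higher and 1106 to 1512 lower genes. For tcpq against tcp21 the ranges were 931 to 1129 higher and 655 to 957 lower, and for tcp21 against Col under submergence 1559 to 2553 higher and 1713 to 2969 lower. The cause was not tested. With the 6 libraries alone, called falls numbered 5 for indole glucosinolate genes, 6 for photosynthesis genes and 28 for ribosomal protein genes, and rises 12 for chloroplast-encoded genes. Libraries with the same replicate number in their titles did not deviate together (correlations of -0.034 to -0.01 between submerged Col and tcpq). These numbers were therefore not used as pairs. With a block for them the counts were 1684 and 1523, and 3 named calls were lost. Some of the submitters' library names carry other numbers than the titles, and pairing by those names was not tested. Genes with few reads carry wide SE, and no call there does not show equal levels.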

Other observations

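Other listed groups showed smaller or mixed differences in submerged tcpq. Counts in this section stand beside 8.7% of all genes called higher and 7.82% called lower. Of 22 iron genes 5 rose and 3 fell, among them the factors BHLH38 (1.22 ± 0.35) and BHLH39 (0.79 ± 0.24) upward and the iron transporter IRT1 (-2.29 ± 0.39) and the coumarin enzyme F6'H1 (-1.37 ± 0.24) downward; the rises numbered 1 without the third Col or the second tcpq library. Nitrate genes gave 4 rises of 11, with the nitrate reductases NIA1 (0.79 ± 0.15) and NIA2 (0.37 ± 0.08) among them. Of 12 PRR, GI and evening clock genes, PRR9 (0.58 ± 0.10), GI (0.60 ± 0.12) and ELF3 (0.57 ± 0.12) rose and none fell. Gibberellin genes gave 4 rises and 3 falls of 19, with the synthesis enzyme GA3OX1 higher (1.53 ± 0.23) and the inactivating enzymes GA2OX6 (-0.68 ± 0.15) and GA2OX8 (-1.14 ± 0.31) lower. The cytokinin oxidase CKX4 fell (-1.72 ± 0.25), and the response regulators ARR6 (0.65 ± 0.13) and ARR9 (0.56 ± 0.10) rose. In the senescence list WRKY53 (-1.77 ± 0.33), SAG13 (-1.67 ± 0.31), WRKY6 (-0.94 ± 0.14) and PAO (-0.22 ± 0.08) fell and none of 12 rose.

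Cytosolic ribosomal protein genes, taken by product name, gave 1 rise and 18 falls of 294 with a median of -0.09; the falls numbered 9 without the third tcpq library. Chloroplast-encoded genes gave 1 rise of 85 and lay 2.3 (median log2) higher in submerged tcp21 than in submerged Col. In these poly-A libraries they held only 0.0296 to 0.0374% of counts in submerged Col. The share varied from 0.0917 to 0.238% among submerged tcp21 libraries and from 0.22 to 0.564% among mock ones. What part library preparation had in this was not tested.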
